A study of Capra hircus with 6 samples.

Results

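Autophagy carries cytoplasm, protein aggregates and worn organelles to the lysosome inside a membrane sac, the autophagosome. A kinase complex built around ULK1 starts it, a lipid kinase complex built around BECN1 and PIK3C3 marks the growing membrane with phosphatidylinositol 3-phosphate (PI3P), and a chain of ubiquitin-like reactions attaches small ATG8 proteins (the LC3 and GABARAP families) to that membrane. Cargo receptors such as SQSTM1 bind ubiquitin on the cargo and an ATG8 protein on the membrane, and so decide what is taken up. In cells that become fat cells, autophagy is known to take part in the remodelling of the cytoplasm, and loss of core autophagy genes impairs the formation of white fat.

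The genes examined are the autophagy machinery and its receptors, chosen by name: every symbol that starts with ATG and a digit or with GABARAP, and 24 further named genes. They came to 44 of the 16262 rows with a gene symbol, while PIK3R4, 1 of the 24, was not analysed here. Expression was measured by RNA sequencing in goat (Capra hircus) adipose mesenchymal stem cells, in 3 libraries of control cells of wild-type genotype and 3 libraries of cells that overexpress TAZ, the Hippo pathway coactivator encoded by WWTR1. Both groups are labelled as under adipogenic differentiation, and the study asked how TAZ affects fat cell formation. The sources used here do not give the construct, its promoter, the animals or the number of clones. Nothing in the labels ties the replicates to separate cultures or animals, and the p-values then cover only differences among these 6 libraries, whose spread may be technical.

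FPKM values are fragment numbers scaled to gene length and library total. Totals of 16935699 to 18852822 fragments per library were worked out from the steps of the values, taken as 0.5 fragments. WWTR1 read 30.2, 29.9 and 35.9 FPKM in the controls and 84.6, 118.1 and 84.2 FPKM in the TAZ libraries (replicates 1, 2 and 3 in turn, as in all such series below), in the direction of the labels. All 12 stromal markers passed the filter (1 FPKM or more in at least 3 libraries), at a summed level of 26540 to 27949 FPKM in controls and 23433 to 25499 FPKM in TAZ libraries, with 4 higher and 4 lower in the TAZ group. The 8 adipocyte markers summed to 18.4 to 20.7 FPKM in controls and 18.9 to 21.8 FPKM in TAZ libraries. ADIPOQ, PLIN1, PPARG, LPL, LEP and CD36 lay under 1 FPKM in every library, and most of the sum was CIDEC, a lipid droplet protein, at 18.3 ± 1.31 against 17.8 ± 1.29 FPKM. LIPE, a triglyceride lipase, rose from 1.01 ± 0.114 to 2.13 ± 0.111 FPKM (limma adjusted p = 0.000168), and what part fat cells have in the results was not tested. Endothelial, epithelial and skeletal muscle markers each summed to at most 0.533 FPKM per library. The 8 leukocyte markers summed to 13.6 to 16.7 FPKM in controls and 26.7 to 27.8 FPKM in TAZ libraries, where CD14 was higher and CD68 lower, PTPRC, the defining pan-leukocyte gene, was listed at 0 in all 6, and 5 others were under 1 FPKM; what part these cells have in the results was not tested. The 6 pericyte markers summed to 34.5 to 45.1 FPKM in controls and 39.0 to 50.4 FPKM in TAZ libraries. In bulk RNA, fewer cells of a type and less RNA per cell cannot be told apart.

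In the TAZ libraries the ubiquitin-binding cargo receptors CALCOCO2 and OPTN rose most among the 44 autophagy genes, to 1.62 and 1.57 times the control level. The ATG8 genes moved in both directions, with MAP1LC3B and GABARAPL1 up and MAP1LC3A and GABARAP down. Most of the core initiation, lipid kinase and conjugation genes did not pass the test. The same held for all tested genes, of which 37.9% passed. None of the 44 genes moved by 2-fold on the log2(FPKM + 1) scale, while some further genes of the pathway, given below, did.

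Of the 44 genes 43 passed the filter, each at 1 FPKM or more in all 6 libraries, so none entered through 1 group alone. Their differences are given as log2 fold changes, TAZ minus control, on the log2(FPKM + 1) scale, which understates changes of low genes. By limma's moderated test, with Benjamini-Hochberg adjustment over all 10750 tested genes and a threshold of 0.05, 10 rose, 4 fell and 29 did not pass. The 14 called genes are 32.6% of those tested, where 37.9% of all tested genes were called. By direction, 23.3% of the autophagy genes rose where 15.7% of all tested genes did, and 9.30% fell where 22.1% did. Their median log2 fold change was 0.044 against -0.050 over all tested genes, and the median size of the change was 0.20 in both. No autophagy gene was called with a change of 2-fold or more, a class that held 4.52% of all tested genes. With median-ratio scaling (each library divided by its median ratio to the others), all tested genes split into 2001 higher and 1821 lower (18.6% and 16.9%) in place of 1693 and 2381, and the autophagy genes into 12 and 4.

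For 22 of the 43 genes the groups were fully apart, with no overlap of values (51.2%), beside 48.4% of all tested genes. Of these 13 were higher in the TAZ libraries (30.2%, beside 19.7% of all tested genes) and 9 lower (20.9%, beside 28.7%). The mean FPKM over the libraries had a median of 13.2 for the autophagy genes and 9.93 for all tested genes, so precision was similar, at a median standard error of 0.097 against 0.10. Control means ran from 1.17 FPKM for ATG16L2, a homolog of the conjugation scaffold ATG16L1, to 298 FPKM for GABARAP. ATG9B, a homolog of the lipid scramblase ATG9A, was the gene under the filter, at 0.030 to 0.151 FPKM from 2 to 11 recovered fragments per library, and its groups overlapped.

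**Figure D1:**
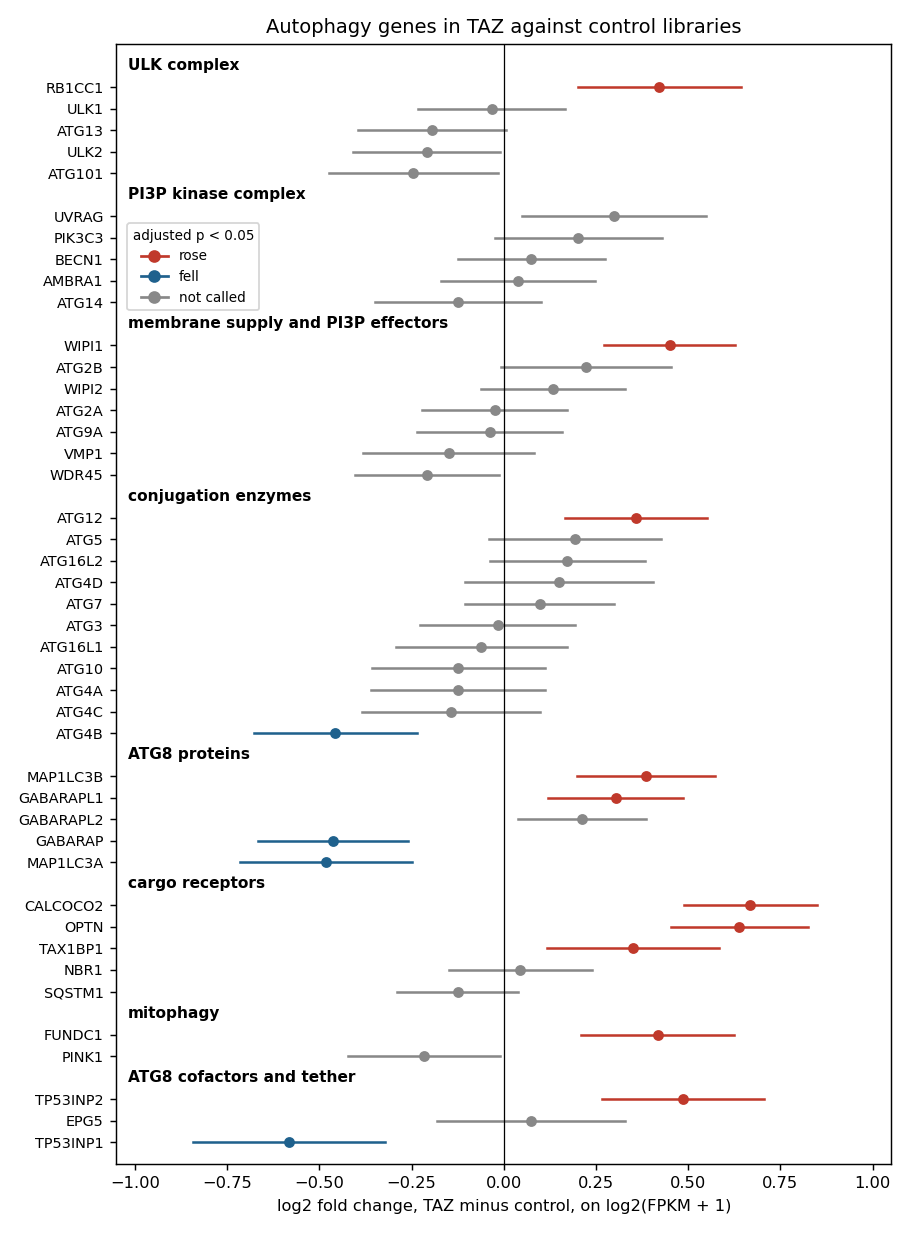
Log2 fold change of the 43 tested autophagy genes (x axis, TAZ minus control on log2(FPKM + 1)), with points for the estimate and bars for limma's 95% interval, grouped by role. The 10 genes that rose lie between 0.30 and 0.67, the 4 that fell between -0.58 and -0.46, and both directions occur within the ATG8 proteins.

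Autophagy is started by the ULK complex, in which the kinases ULK1 and ULK2 work with the scaffold RB1CC1 (FIP200) and with ATG13 and ATG101. RB1CC1 had control values of 10.8, 9.999 and 12.8 FPKM and TAZ values of 16.1, 15.2 and 14.5 FPKM. All TAZ libraries lay above all controls, and RB1CC1 rose (a log2 change of 0.42, SE 0.10, limma adjusted p = 0.00582). It was the 1 called gene among the 5 of this complex (20%), beside 37.9% of all tested genes. ULK1 was nearly level at 10.4 ± 0.598 against 10.1 ± 0.561 FPKM (SD, n = 3 libraries per group, as for all values in this form), with a 95% interval of the log2 fold change from -0.23 to 0.17. ULK2 was at 6.65 ± 0.306 against 5.61 ± 0.220 FPKM and ATG13 at 12.6 ± 1.14 against 10.8 ± 0.134 FPKM. Neither passed (limma adjusted p = 0.0919 and 0.12), although their groups did not overlap, and ULK2 passed as lower under quantile normalization (adjusted p = 0.0402). ATG101, which stabilises ATG13, was at 17.3 ± 1.95 against 14.4 ± 1.37 FPKM (limma adjusted p = 0.0852), and passed as lower without control replicate 3 (adjusted p = 0.0176).

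The lipid kinase complex had 0 called genes of 5 tested by limma, where 37.9% of all tested genes were called. In this complex UVRAG was the 1 gene at an unadjusted p under 0.05. BECN1 (beclin 1), the regulatory subunit of the complex, was at 24.2 ± 2.31 FPKM in controls and 25.5 ± 1.02 FPKM in TAZ libraries. PIK3C3 (VPS34), the catalytic subunit, was at 4.29 ± 0.505 against 5.08 ± 0.428 FPKM, with a 95% interval of its log2 fold change from -0.024 to 0.43. ATG14 directs the complex to autophagosome formation and UVRAG to endosomes, and both bind BECN1 in its place. ATG14 was at 1.99 ± 0.0685 against 1.76 ± 0.305 FPKM, and UVRAG at 4.72 ± 0.698 against 6.04 ± 0.733 FPKM (limma adjusted p = 0.0564). UVRAG passed as higher under median-ratio scaling (adjusted p = 0.0292), in a fit of the fragment numbers with limma's voom (0.0435) and without control replicate 3 (0.0119). AMBRA1, a scaffold that links BECN1 to regulation by kinases and ubiquitin ligases, was at 7.13 ± 0.610 against 7.34 ± 0.376 FPKM.

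Among the genes that supply membrane and read PI3P, WIPI1 rose and 6 others tested did not pass (14.3% called, beside 37.9% of all tested genes). WIPI proteins are beta-propellers that bind PI3P on the forming membrane. WIPI1 measured 37.7, 36.4 and 36.8 FPKM in the controls and 48.5, 49.6 and 54.7 FPKM with TAZ. The lowest TAZ library lay well above the highest control, whose group varied little (a log2 change of 0.45, SE 0.082, limma adjusted p = 0.000873). WIPI2, which recruits the conjugation machinery through ATG16L1, was at 13.3 ± 0.658 against 14.7 ± 0.918 FPKM. WDR45 (WIPI4), which pairs with the lipid transfer proteins ATG2A and ATG2B, was at 13.5 ± 0.495 against 11.6 ± 0.778 FPKM (limma adjusted p = 0.0865). ATG2A was at 6.33 ± 0.298 against 6.20 ± 0.0542 FPKM and ATG2B at 3.23 ± 0.373 against 3.94 ± 0.442 FPKM, and ATG2B passed as higher without control replicate 3 (limma adjusted p = 0.0486). The scramblase genes ATG9A and VMP1 did not pass, at 8.86 ± 0.523 against 8.60 ± 0.256 FPKM and 26.3 ± 0.419 against 23.8 ± 3.78 FPKM. VMP1 was widely spread within the TAZ group, from 19.97 FPKM in replicate 3 to 27.5 FPKM in replicate 2.

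The conjugation enzymes went in both directions, with ATG12 higher, ATG4B lower and 9 of 11 not past the threshold. The 18.2% called lay below the 37.9% of all tested genes, of which 15.7% rose and 22.1% fell. ATG12 is a ubiquitin-like protein that is joined to ATG5 and, with ATG16L1, places ATG8 proteins on lipid. ATG12 read 16.2, 15.95 and 18.2 FPKM in the controls against 22.7, 21.4 and 21.1 FPKM in the TAZ libraries. All TAZ libraries were above the controls (a log2 change of 0.36, SE 0.089, limma adjusted p = 0.00654). ATG4B is the main protease that trims ATG8 proteins before they are joined to lipid and frees them afterwards. ATG4B had control values of 24.5, 23.3 and 19.6 FPKM and TAZ values of 14.7, 17.1 and 16.4 FPKM. The TAZ libraries were below every control, and ATG4B fell (a log2 change of -0.46, SE 0.10, limma adjusted p = 0.00351).

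Other ATG4 proteases did not pass: ATG4A was at 6.10 ± 0.742 against 5.50 ± 0.540 FPKM, ATG4C at 6.001 ± 0.735 against 5.34 ± 0.648 FPKM and ATG4D at 3.45 ± 0.619 against 3.91 ± 0.395 FPKM. ATG4B was thus the most abundant of the 4 proteases in both groups. The E1-like enzyme gene ATG7 was at 4.15 ± 0.278 against 4.51 ± 0.0239 FPKM and the E2-like enzyme gene ATG3 at 22.2 ± 1.72 against 21.9 ± 1.997 FPKM. ATG10, the other E2-like enzyme, was at 2.46 ± 0.245 against 2.18 ± 0.361 FPKM and ATG5 at 7.68 ± 0.687 against 8.94 ± 1.15 FPKM. ATG16L1 was at 7.201 ± 0.891 against 6.85 ± 0.601 FPKM and ATG16L2 at 1.17 ± 0.151 against 1.44 ± 0.0990 FPKM. The 95% intervals of these 9 log2 fold changes lay between -0.39 and 0.43.

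The ATG8 proteins coat the autophagosome and bind its receptors, the LC3 branch being linked mainly to growth of the membrane and the GABARAP branch also to its closure and fusion. Of 5 genes, 2 rose, 2 fell and GABARAPL2 did not pass, so that each branch had 1 riser and 1 faller. Called were 80% of these 5, beside 37.9% of all tested genes, of which 15.7% rose and 22.1% fell. MAP1LC3C, an LC3 gene outside the 5, did not pass (limma adjusted p = 0.181). MAP1LC3B, the form most used as an autophagosome marker, measured 32.2, 35.0 and 35.8 FPKM in the controls and 44.8, 42.5 and 48.2 FPKM with TAZ. MAP1LC3B rose, with no overlap between groups (a log2 change of 0.39, SE 0.086, limma adjusted p = 0.0034). MAP1LC3A, its close paralog, read 61.6, 58.3 and 47.3 FPKM in the controls against 35.4, 41.6 and 41.4 FPKM in the TAZ libraries. It fell, and its controls were the more variable group (a log2 change of -0.48, SE 0.11, limma adjusted p = 0.00347).

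In the GABARAP branch, GABARAP had control values of 279, 334 and 281 FPKM and TAZ values of 216, 199.8 and 232 FPKM. It was the most abundant of the 44 genes in both groups, and it fell (a log2 change of -0.46, SE 0.094, limma adjusted p = 0.00185). GABARAPL1 measured 20.2, 20.1 and 21.7 FPKM in the controls and 27.1, 24.9 and 25.3 FPKM with TAZ. GABARAPL1 rose (a log2 change of 0.30, SE 0.085, limma adjusted p = 0.013), and this call did not hold without TAZ replicate 1 (adjusted p = 0.0607). GABARAPL2 (GATE-16) read 146, 155 and 146 FPKM in the controls against 166, 169 and 184 FPKM in the TAZ libraries. Its groups did not overlap, but it did not pass (a log2 change of 0.21, SE 0.080, limma adjusted p = 0.0532). GABARAPL2 passed as higher under median-ratio scaling (adjusted p = 0.0317), quantile normalization (0.00775) and rescaling without the top 50 genes (0.0121). ATG8 genes have close paralogs, and the sources used here do not give how fragments that fit several copies were assigned.

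**Figure D2:**
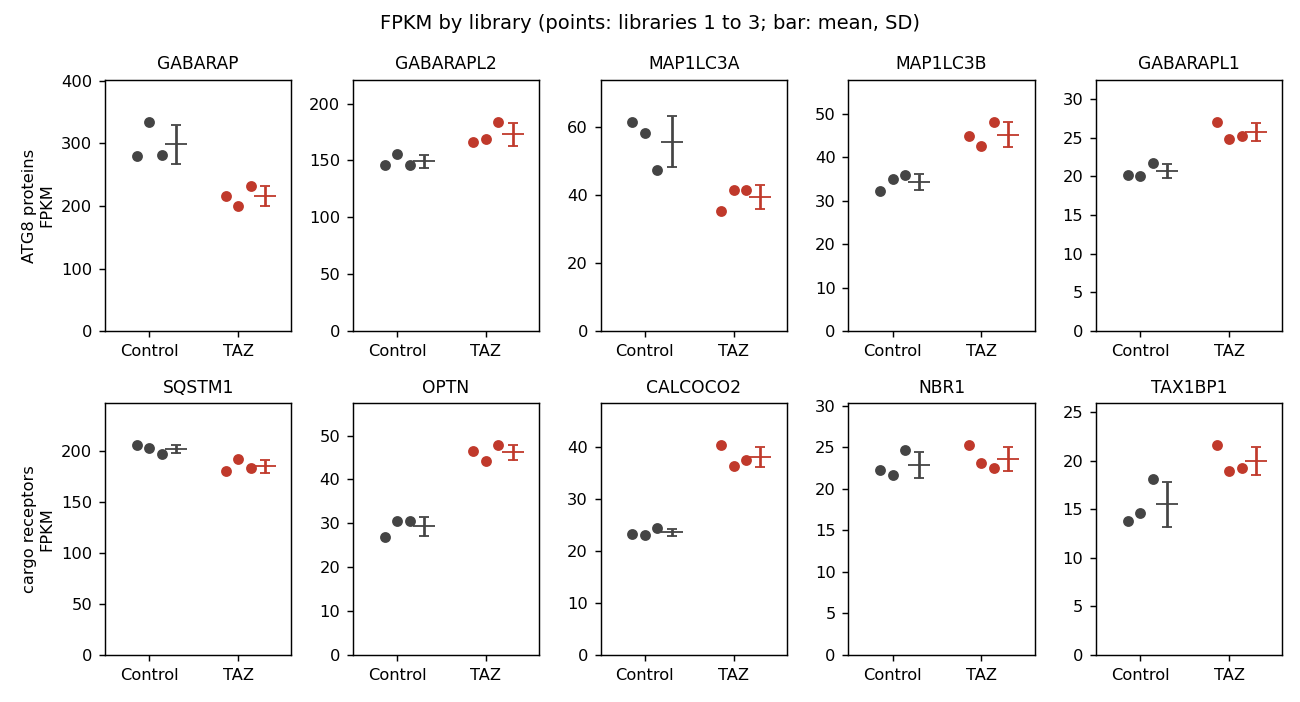
FPKM (y axes, each from 0) of the 5 ATG8 genes and the 5 cargo receptor genes in each of the 6 libraries, with the mean and SD of each group beside the points. GABARAP and MAP1LC3A were lower and MAP1LC3B, GABARAPL1, CALCOCO2, OPTN and TAX1BP1 higher in all 3 TAZ libraries, while NBR1 overlapped between groups.

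The make-up of the transcripts of the 5 ATG8 genes, MAP1LC3C not included, differed between the groups without overlap. As FPKM is scaled to gene length, the 5 genes can be added, and they summed to 539, 603 and 533 FPKM in the controls and 489, 478 and 530.5 FPKM in the TAZ libraries. GABARAP made up 53.4% ± 1.90 of this sum in controls and 43.2% ± 1.22 in TAZ libraries, and GABARAPL2 26.8% ± 0.892 and 34.7% ± 0.717. The share of MAP1LC3B went from 6.17% ± 0.493 to 9.05% ± 0.137, and that of MAP1LC3A from 9.99% ± 1.31 to 7.92% ± 0.741. GABARAPL1 made up 3.72% ± 0.375 in controls and 5.17% ± 0.389 in TAZ libraries. By FPKM, the order of the LC3 paralogs differed between groups. MAP1LC3A was above MAP1LC3B in each control library, with MAP1LC3B to MAP1LC3A ratios of 0.522, 0.600 and 0.758, and below it in each TAZ library, with ratios of 1.27, 1.02 and 1.16. Shares and order rest on the gene lengths, worked out as 1077 bases for MAP1LC3A and 2135 for MAP1LC3B. Summed recovered fragments of MAP1LC3B were above those of MAP1LC3A in both groups, 3789 against 3104 in controls and 5240.5 against 2318 in TAZ libraries. The ratio of GABARAPL2 to GABARAP was 0.502 ± 0.033 in controls and 0.803 ± 0.0389 in TAZ libraries. Each of these 5 shares and 2 ratios had an exact two-sided permutation p = 0.1, the smallest that 3 libraries against 3 can give (Benjamini-Hochberg adjusted 0.113 over 18 shares and ratios compared).

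Of the 5 receptors that deliver ubiquitin-tagged cargo 3 rose, where 15.7% of all tested genes did, and none fell by limma or at an unadjusted p under 0.05, where 22.1% of all tested genes fell by limma. One of the 3, TAX1BP1, lost its call in several settings given with its values. CALCOCO2 (NDP52), which binds ubiquitin- and galectin-marked bacteria and damaged mitochondria, had control values of 23.2, 23.1 and 24.4 FPKM and TAZ values of 40.3, 36.4 and 37.5 FPKM. CALCOCO2 had the lowest adjusted p of the 43 genes, and its controls lay close together (a log2 change of 0.67, SE 0.083, limma adjusted p = 3.5e-05). OPTN (optineurin), a receptor for mitochondria and bacteria that is regulated by the kinase TBK1, measured 26.8, 30.6 and 30.5 FPKM in the controls and 46.4, 44.2 and 47.8 FPKM with TAZ. OPTN rose by a similar amount (a log2 change of 0.64, SE 0.086, limma adjusted p = 7.25e-05), and TBK1 itself rose from 3.87 ± 0.403 to 7.55 ± 0.725 FPKM (a log2 change of 0.81, SE 0.10, adjusted p = 5.01e-05).

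TAX1BP1, a paralog of CALCOCO2 that also restrains NF-kB signalling, read 13.8, 14.6 and 18.1 FPKM in the controls against 21.6, 19.0 and 19.3 FPKM in the TAZ libraries. Control replicate 3 lay close to the TAZ libraries (a log2 change of 0.35, SE 0.11, limma adjusted p = 0.0211). With no filter the call of TAX1BP1 was lost (adjusted p = 0.0615), as it was when control replicate 1 (0.0862), control replicate 2 (0.0665) or TAZ replicate 1 (0.0786) was left out. SQSTM1 (p62), the receptor for aggregates that is itself degraded by autophagy, had control values of 206, 204 and 198 FPKM and TAZ values of 181, 193 and 183 FPKM. It was slightly lower in each TAZ library but did not pass (a log2 change of -0.13, SE 0.076, 95% interval -0.29 to 0.040, limma adjusted p = 0.216). NBR1, a partner of SQSTM1 in aggregates, measured 22.3, 21.6 and 24.6 FPKM in the controls and 25.2, 23.1 and 22.5 FPKM with TAZ, and its groups overlapped (limma adjusted p = 0.734).

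SQSTM1 remained the most abundant receptor but made up less of the summed receptor FPKM, 69.0% ± 1.83 in controls and 59.2% ± 1.83 in TAZ libraries. CALCOCO2 went from 8.02% ± 0.210 to 12.1% ± 0.649 and OPTN from 9.98% ± 0.684 to 14.7% ± 0.690, each of the 3 shares at the exact permutation floor of p = 0.1. The share of NBR1 was 7.78% ± 0.510 against 7.53% ± 0.437 (exact permutation p = 0.5) and that of TAX1BP1 5.28% ± 0.756 against 6.37% ± 0.452 (p = 0.2). The summed receptor FPKM was 294 ± 1.58 in controls and 313 ± 2.71 in TAZ libraries.

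**Figure D3:**
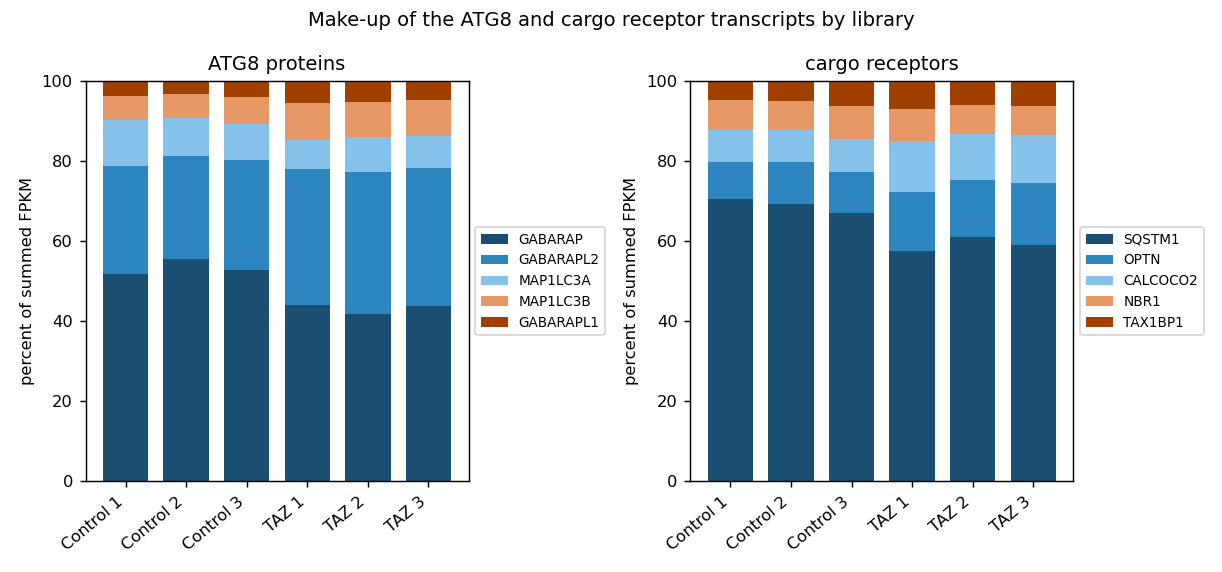
Percent of the summed FPKM (y axis) of the 5 ATG8 genes (left) and the 5 cargo receptor genes (right) in each library. GABARAP made up 51.8% to 55.5% of the ATG8 sum in the control libraries and 41.8% to 44.1% in the TAZ libraries, and SQSTM1 made up 66.9% to 70.5% and 57.5% to 61.1% of the receptor sum.

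Of the mitophagy genes, FUNDC1 rose and PINK1 did not pass. FUNDC1, a receptor in the outer mitochondrial membrane that is linked to hypoxia, read 17.6, 20.6 and 19.1 FPKM in the controls against 25.1, 24.0 and 28.5 FPKM in the TAZ libraries. Its groups did not overlap (a log2 change of 0.42, SE 0.096, limma adjusted p = 0.00417). PINK1, the kinase that marks depolarised mitochondria, was at 33.3 ± 1.99 against 28.6 ± 2.91 FPKM and lower in each TAZ library (limma adjusted p = 0.0938).

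The paralogs TP53INP1 and TP53INP2, which bind ATG8 proteins and promote autophagy, moved in opposite directions. TP53INP1, a p53-inducible stress gene, had control values of 15.9, 14.3 and 17.8 FPKM and TAZ values of 12.5, 9.26 and 9.41 FPKM. It had the largest fall of the 43 genes (a log2 change of -0.58, SE 0.12, limma adjusted p = 0.00209). TP53INP2 (DOR), which carries LC3 out of the nucleus, measured 27.5, 33.2 and 35.7 FPKM in the controls and 48.4, 43.3 and 44.1 FPKM with TAZ. TP53INP2 rose (a log2 change of 0.49, SE 0.10, limma adjusted p = 0.00225), and the ratio of TP53INP2 to TP53INP1 was 2.02 ± 0.294 in controls and 4.41 ± 0.473 in TAZ libraries (exact permutation p = 0.1). EPG5, a tether between autophagosome and lysosome, was at 1.79 ± 0.362 against 1.93 ± 0.295 FPKM.

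Further genes of the pathway were taken from 8 lists that hold 85 symbols, of which 74 were tested. Of these 14 rose and 10 fell, 32.4% in all, beside 37.9% of all tested genes. One of the 14, BCL2, passed the filter through its TAZ libraries alone, and so had to be higher there. Without genes that entered through 1 group alone 13 of 73 rose and 10 fell, 31.5% in all, beside 36.4% of all such genes. The largest rises were in receptors that act on the endoplasmic reticulum and mitochondria. Among 8 tested ER-phagy receptors 2 rose and 2 fell (50% called, beside 37.9% of all tested genes), and the median log2 fold change was 0.12. CCPG1, an ER-phagy receptor induced by ER stress, rose from 13.2 ± 1.49 to 38.6 ± 3.32 FPKM (a log2 change of 1.48, SE 0.10, limma adjusted p = 1.13e-07). ATL3, an atlastin that acts as a receptor for ER tubules, rose from 18.4 ± 3.55 to 38.5 ± 3.82 FPKM, while FAM134A (RETREG2) fell to 0.804 times the control level. CALCOCO1, a soluble ER-phagy receptor of the CALCOCO2 family, fell from 13.9996 ± 1.335 to 8.67 ± 0.780 FPKM (a log2 change of -0.63).

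Of 11 tested mitophagy receptors and regulators 3 rose and 2 fell, with a median of 0.020. The 45.5% called stand beside 37.9% of all tested genes, of which 15.7% rose and 22.1% fell. BNIP3, a hypoxia-inducible receptor on the outer mitochondrial membrane, had the largest rise of the 74 genes at 3.12 times the control level, and TBK1 was next in this list. NIPSNAP1, a mitochondrial protein that attracts receptors to damaged mitochondria, fell from 27.4 ± 1.59 to 21.1 ± 0.425 FPKM (limma adjusted p = 0.0049). FUNDC2, a homolog of FUNDC1, and FKBP8, an anchored chaperone that also serves as a mitophagy receptor, were the other calls, at 1.41 and 0.770 times the control level. Without TAZ replicate 1 (adjusted p = 0.0597) or with no filter (0.0502) FKBP8 was no longer called, and FUNDC2 was not called when TAZ replicate 3 (0.149) or control replicate 1 (0.106) or 2 (0.0578) was left out, with no filter (0.113) or with voom (0.111). Of 5 further selective receptors tested, 2 rose and none fell by limma (40% called, beside 37.9% of all tested genes). At an unadjusted p under 0.05 TOLLIP was lower. NCOA4, which delivers ferritin, rose from 24.2 ± 1.49 to 33.3 ± 1.80 FPKM and CCDC50, a receptor for polyubiquitin, from 15.9 ± 1.14 to 21.5 ± 1.08 FPKM. TOLLIP, a ubiquitin-binding adaptor, was at 47.5 ± 5.77 against 39.3 ± 3.81 FPKM (limma adjusted p = 0.0659), and passed as lower without control replicate 3 (adjusted p = 0.00932). STBD1, a receptor for glycogen, was under the filter at 0.493 ± 0.121 against 0.440 ± 0.164 FPKM.

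Of 15 tested genes of autophagosome fusion 4 fell and 1 rose, 33.3% in all and near the 37.9% of all tested genes, of which 22.1% fell and 15.7% rose. Their median log2 fold change was -0.049, beside -0.050 over all tested genes. YKT6, a SNARE of the autophagosome, fell from 102 ± 0.884 to 70.7 ± 0.387 FPKM (a log2 change of -0.52, SE 0.075, limma adjusted p = 0.000121). VPS33A, a subunit of the HOPS tether, fell from 9.54 ± 0.523 to 6.62 ± 0.429 FPKM, while RAB7B, a small GTPase of the endosomal system, rose from 7.98 ± 1.13 to 12.2 ± 1.01 FPKM. The other falls were VTI1B, an endosomal SNARE, at 0.722 times the control level, and VPS16, a further HOPS subunit, at 0.842 times. VPS16 was close to the threshold (adjusted p = 0.0459) and was not called in 10 of the 16 other settings, at adjusted p-values from 0.0505 to 0.164, median-ratio scaling among them (0.118). FAM134A, FUNDC2, FKBP8, VTI1B and VPS16 were named after their values were seen, to complete the counts. Of 6 further ATG8-related genes TECPR1, a tether that binds the ATG12 to ATG5 conjugate, rose from 1.465 ± 0.199 to 2.58 ± 0.243 FPKM (a log2 change of 0.54, limma adjusted p = 0.00111), and none fell by limma or at an unadjusted p under 0.05. The 16.7% called in this list lay below the 37.9% of all tested genes. MAP1LC3C, the remaining LC3 gene, was at 6.999 ± 0.824 against 8.13 ± 0.797 FPKM, and NRBF2, a subunit of the lipid kinase complex, at 6.07 ± 0.429 against 6.62 ± 0.243 FPKM, and neither passed.

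**Figure D4:**
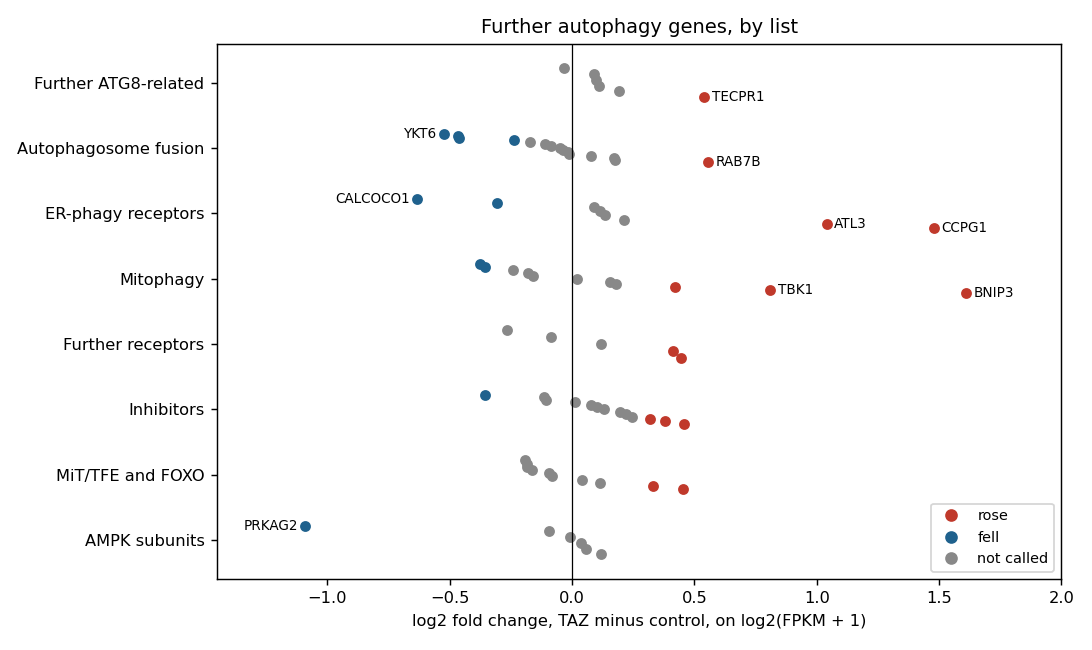
Log2 fold change (x axis, TAZ minus control on log2(FPKM + 1)) of the 74 tested genes in 8 further autophagy lists (y axis), 1 point per gene and names at called changes beyond 0.5. BNIP3 at 1.61, CCPG1 at 1.48 and ATL3 at 1.04 lie farthest to the right and PRKAG2 at -1.09 farthest to the left.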

How the data were processed

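Total RNA of 6 libraries was sequenced, 3 per group, grouped by their titles. RNA came from TRIzol extraction and was made into libraries with a VAHTS Universal V6 kit, per the labels' protocols. The submitters' processing notes name fastp, HISAT2 and HTSeq. How shared reads were handled, tool versions, build and strandedness were not given in the sources used here; coordinates are therefore left out, and values of close paralogs are uncertain. The authors deposited FPKM values, per the file headers and names, in 1 table per group; 23 rows with a date in place of a symbol were left out. All 44 symbols matched the RefSeq gene table of ARS1.2, used for names only.

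FPKM was log2-transformed after adding 1, and libraries were not rescaled. Genes at 1 FPKM or more in at least 3 libraries were kept, and tested two-sided with limma 3.58.1 (R 4.3.3) using a mean-variance trend, with Benjamini-Hochberg adjustment and a threshold of 0.05. The test was also run on simulated data drawn independently for each library. Those data lack the correlated deviations between libraries given below, and nothing is concluded from them. FPKM steps of 0.5 fragments gave library totals and fragment numbers (tolerance 0.02 fragments) for 99.99% of rows with a value. Other settings were a replicate block, voom on recovered fragments, no trend, leaving out each library, quantile normalization, median-ratio scaling, scaling on all but the top 50 genes, 0.1 or 0.5 as the pseudocount, and either no filter or one at a mean of 5 FPKM. No search for outlying libraries was made within groups of 3.

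Every autophagy gene was named. Values of every library were given for the 8 largest called rises and 8 largest called falls (at 2 FPKM or more on average in the higher group), for all ATG8 and cargo receptor genes, and the 3 lowest adjusted p of each further list were named. Members and lists were chosen with earlier results of these data known.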

Additional observations from a re-analysis of the deposited data

How the results depend on the processing

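Under 16 other settings no called autophagy gene changed direction, and 12 of the 14 kept their call; the exceptions were GABARAPL1 and TAX1BP1, and 5 uncalled genes passed in at least 1 setting. The number that rose was 9 to 12 over the settings with all libraries and 8 to 12 when each library was left out in turn, and the number that fell was 4 to 5 in both. The median log2 fold change of the autophagy genes was the value that moved beyond its spread between libraries (SD 0.037): it was -0.017 with the stricter filter, which tested fewer of them, 0.095 under median-ratio scaling and 0.090 after rescaling without the top 50 genes, where the cause was not tested, and 0.0065 to 0.077 when a library was left out. Over all tested genes 1198 to 2001 rose and 1821 to 2495 fell, and 1386 to 1878 and 1819 to 2518 when a library was left out. With the replicate number as a block 10 autophagy genes rose and 4 fell, as without it, and 1548 and 1964 of all tested genes did. The number did not pair the libraries: deviations of same-numbered libraries correlated at -0.44, -0.11 and -0.40, and no library correlated best with its own number. The highest correlations joined differently numbered libraries, at 0.69 (control 3 with TAZ 1), 0.55 (control 2 with TAZ 3) and 0.53 (control 1 with TAZ 2). The labels give no batch or pairing for these, so no block was fitted on them, and their part in the results was not tested. Each of the 43 tested autophagy genes rested on at least 112.5 recovered fragments per library, and counting error limits the lowest genes most. Some genes of the further lists had fewer, such as FUNDC2 at 29 to 63 and BCL2 at 21.5 to 54.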

Other observations

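Among 10 tested MiT/TFE and FOXO regulators, the transcription factors and partners that control autophagy and lysosome genes, 2 rose and none fell by limma or at an unadjusted p under 0.05. The 20% called lay below the 37.9% of all tested genes, of which 15.7% rose and 22.1% fell. FOXO3 rose from 4.98 ± 0.726 to 7.19 ± 0.928 FPKM (a log2 change of 0.46, SE 0.12, limma adjusted p = 0.00843). FOXO1 rose from 15.2 ± 0.755 to 19.4 ± 1.81 FPKM (adjusted p = 0.0144), and this call did not hold without control replicate 2 (0.0565) or TAZ replicate 1 (0.0668). FLCN, a regulator of TFEB and TFE3, was at 8.02 ± 0.635 against 6.95 ± 0.547 FPKM and did not pass (adjusted p = 0.165), and TFEC was under the filter. TFEB was at 4.13 ± 0.617 against 4.28 ± 0.716 FPKM (adjusted p = 0.832), and TFE3, the most abundant MiT/TFE factor here, at 35.1 ± 0.703 against 38.1 ± 0.494 FPKM (adjusted p = 0.266). Values of TFEB and TFE3 are given as those of the list's best known factors, chosen after their values were seen.

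Of 6 tested AMPK genes, PRKAG2, a regulatory subunit of this energy-sensing kinase that activates ULK1, fell to 0.452 times the control level, from 29.7 ± 1.25 to 13.4 ± 1.03 FPKM (a log2 change of -1.09, SE 0.090, limma adjusted p = 7e-07). PRKAG1, its paralog, was at 33.1 ± 0.980 against 30.9 ± 0.261 FPKM and STK11 (LKB1), the upstream kinase, at 14.3 ± 1.89 against 15.5 ± 1.23 FPKM, and neither passed. PRKAA2 was under the filter. PRKAG2 was the 1 called gene of this list (16.7%), beside 37.9% of all tested genes, of which 22.1% fell. In a list of inhibitors and other regulators of autophagy 2 of 12 rose (16.7%) and 1 fell (8.33%), with BCL2 left out of the count. Of all tested genes without those that entered through 1 group alone, 14.9% rose and 21.5% fell. TAB2, which holds BECN1 inactive, rose from 16.8 ± 2.09 to 23.3 ± 2.02 FPKM (limma adjusted p = 0.00391). EP300, an acetyltransferase of ATG proteins, named after its value was seen, was 1.27 times as high (adjusted p = 0.04), and was not called with no filter (0.0982) or when TAZ replicate 1 (0.119) or 2 (0.126) or control replicate 2 (0.173) was left out. BCL2, which also binds BECN1, was at 0.666 ± 0.118 against 1.17 ± 0.0464 FPKM, and is given with no test because it passed the filter through its TAZ libraries alone. MTMR14, a phosphatase that removes PI3P, fell from 9.26 ± 0.789 to 7.01 ± 0.644 FPKM (adjusted p = 0.0143), and this call did not hold when control replicate 1 (0.0576) or either of TAZ replicates 1 (0.0593) and 3 (0.0515) was left out. DAPK1 was under the filter at 0.867 ± 0.0806 against 0.549 ± 0.0612 FPKM.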
